A study of Mus musculus with 36 samples.

Results

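The cytosolic ribosomal protein genes are the genes for the structural proteins of the small (40S) and large (60S) subunits of the ribosome that translates nuclear messages. They were taken by symbol from the array's annotation: names of the form Rpl or Rps with a number, the stalk genes Rplp0 to Rplp2, and Rpsa. Only probe sets annotated with a single symbol were used, and where a gene had several, the one of highest average over all arrays stood for it. This gave 49 of 18193 genes, 23 of the 40S and 26 of the 60S subunit. A further 28 names of this form, among them Rpl3, Rpl5, Rpl10 and Rplp1, occur only in probe sets shared with other symbols and were not analysed here.

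RNA was measured on 36 Affymetrix 3' expression arrays, in 12 groups of 3 arrays. The cells were OT-I CD8 T cells, whose transgenic receptor recognises a peptide of ovalbumin. A vector with a short hairpin RNA was put into the cells, which were moved into mice bearing tumors of B16, a mouse melanoma line, and later isolated from tumor or spleen. The hairpin was directed at Ppp2r2d, Egr2, Ptpn2, Arhgap5 or Alk, and the control hairpin at LacZ, a bacterial gene that mouse cells lack. Each of these 6 transductions gave 3 arrays labelled tumor and 3 labelled spleen. All groups share the transgenic receptor, a hairpin vector and a tumor-bearing host. The labels give no animal age, no number of mice behind a sample and 1 hairpin target per group without its sequence. Nothing says that the 3 arrays of a group came from separate mice, so p-values measure the spread between arrays, which may be technical.

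Ribosomal proteins are made in nearly equal numbers, assembled with ribosomal RNA in the nucleolus and exported as subunits. Many of their messages start with a C followed by a run of pyrimidines, the 5' terminal oligopyrimidine (TOP) tract, through which mTORC1, 4E-BP and LARP1 control their translation. Activated T cells are known for a rise in ribosome production, and a few members have paralogues with expression limited to certain tissues or stresses.

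Several markers went against the tissue labels. All 13 measured melanocyte genes but Sox10 were lower in arrays labelled tumor, by a median of 4.12 on the log2 scale, where a difference of 1 is a 2-fold change. Of 19 myeloid genes, 16 were also lower there, by a median difference of -3.59. The summed melanocyte level, on the linear scale, was 9.295 to 20.2 in arrays labelled tumor and 126 to 430 in arrays labelled spleen. B cell genes (10 of 10) and erythroid genes (5 of 7) were higher in arrays labelled tumor. Cd8a, which marks CD8 T cells, averaged 6.62 in arrays labelled tumor and 6.64 in those labelled spleen. Other T cell genes were not all equal. Of 10 measured, 3 were higher in arrays labelled tumor (Cd8b1 by 0.66, Lat by 0.40 and Cd247 by 0.36). Zap70 was lower (-0.27), and the others did not pass. Of the hairpin targets, only Ppp2r2d in arrays labelled spleen was lower in its own hairpin than in LacZ past the test, by a difference of -1.37 (SE 0.42, adjusted p = 0.029), and in arrays labelled tumor the 5 targets had differences from -0.47 to 1.13, none past the test. Groups are therefore called by their labels throughout, and each direction below holds for the labels. In bulk RNA, fewer cells of a type and less RNA per cell cannot be told apart, and the part of these other cell types in the results on ribosomal protein genes was not tested.

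The probe sets of the ribosomal protein genes fell into a bright and a dim class. Of 49 members, 35 had a mean signal above 7, and all 35 lay among the 100 highest of 18193 genes. These 35 made up 33.7% of the 104 genes above that level. Rplp2, a protein of the stalk that recruits elongation factors, had a mean signal of 8.17, Rpsa 8.08, Rpl41 8.07, Rpl35 8.05 and Rps3a1 7.98. Rpsa is a 40S protein whose precursor is also known as the laminin receptor, and Rpl41 is the smallest of the proteins. The lowest means were those of Rps16 (-3.04), Rpl3l (-2.04), Rpl37 (-1.24), Rps4l (-1.11) and Rpl39l (0.60). Rpl3l is a paralogue of Rpl3 known from skeletal muscle and heart, and Rpl39l a paralogue of Rpl39 known from testis. Rps16 and Rpl37 are constituents of the ribosome like the bright members, and the signal of a probe set also depends on its probes. Signals are therefore compared between arrays for the same probe set and not between genes. The probe set used had no suffix letter in 15 members. In the others, 21 sets carried the suffix a, 2 the suffix s and 11 the suffix x, which marks probes that may hybridise to several transcripts. Values of those 11 members are uncertain for that reason, since copies of ribosomal protein genes are frequent in the mouse genome.

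**Figure D1:**
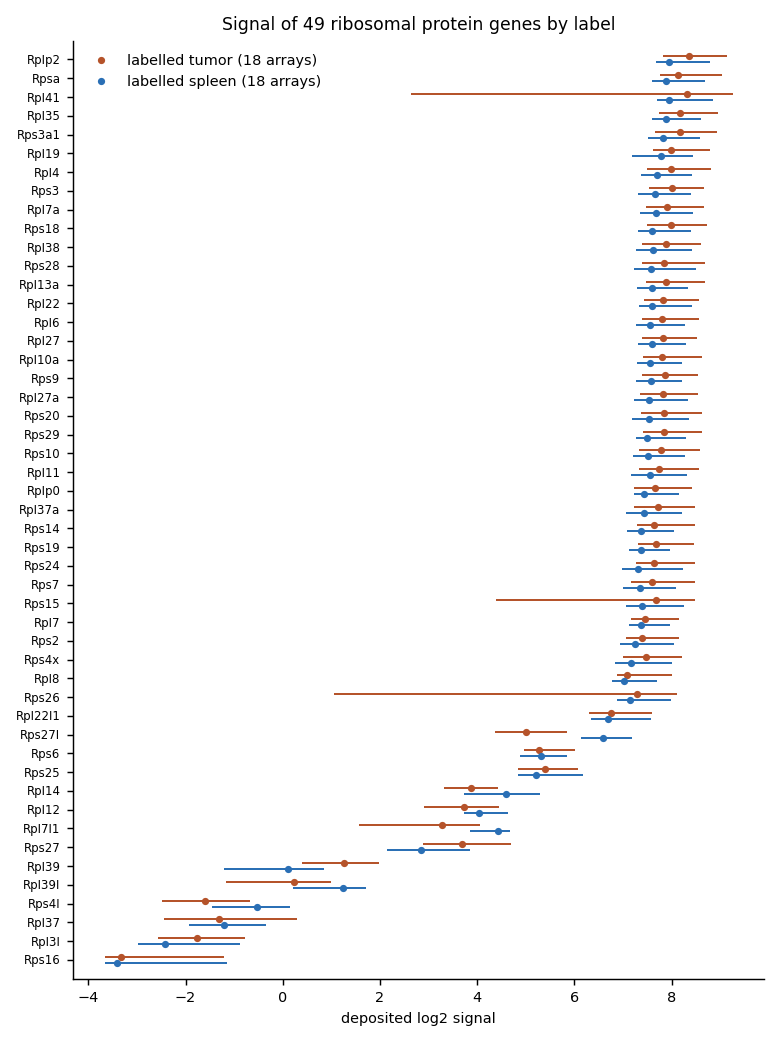
Deposited log2 signal of the 49 ribosomal protein genes, ordered by mean. Points are medians and lines run from the lowest to the highest of 18 arrays, for arrays labelled tumor (brown, upper line of each pair) and labelled spleen (blue). The bright members lie slightly further right in arrays labelled tumor, Rps27l lies further left without overlap, and 3 long brown lines (Rpl41, Rps15, Rps26) come from 1 array.

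Sequences at the annotated starts of transcription are shown for some members on which the later results turn, paralogues and ordinary ribosomal protein genes. The windows shown do not stand for either kind, and tracts in all members are counted below. Each window holds 10 bases before the start and 20 from the start on, from RefSeq on build GRCm38.p6, written 5' to 3' on the strand of the gene. Capitals mark a C followed by at least 4 pyrimidines where such a tract begins within 5 bases of the start. Rps27 lies at chr3:90213629-90213658 on the minus strand and its paralogue Rps27l at chr9:66946076-66946105 on the plus strand. Rpl39 lies at chrX:37085203-37085232 on the minus strand and its paralogue Rpl39l at chr16:10170218-10170247 on the plus strand. Rpl7l1 lies at chr17:46782637-46782666 on the minus strand, Rpl14 at chr9:120571507-120571536 on the plus strand, Rplp2 at chr7:141447641-141447670 on the plus strand and Rpl38 at chr11:114668570-114668599 on the plus strand.
Rps27: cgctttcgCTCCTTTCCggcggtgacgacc
Rps27l: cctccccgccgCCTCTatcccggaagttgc
Rpl39: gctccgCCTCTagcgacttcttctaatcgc
Rpl39l: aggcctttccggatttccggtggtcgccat
Rpl7l1: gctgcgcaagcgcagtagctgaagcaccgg
Rpl14: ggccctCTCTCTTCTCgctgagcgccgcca
Rplp2: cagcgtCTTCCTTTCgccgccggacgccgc
Rpl38: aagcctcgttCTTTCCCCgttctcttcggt

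RefSeq start windows were found for 43 of the 49 members. A C with at least 4 pyrimidines stood exactly at an annotated start in 8 of the 43 (18.6%), against 2.49% of 27025 genes. Within 5 bases of the start such a tract was found in 20 of 43 members (46.5%), against 18.5% of genes. Of the paralogues shown, Rps27l had a tract of 5 bases and Rpl39l and Rpl7l1 had none in this window. Of paralogues not shown, Rpl22l1 had a tract of 8 bases and Rpl3l had none. Ordinary members not shown, such as Rps3, Rps19, Rpsa and Rplp0, had none either, so tracts did not separate ordinary members from paralogues. In the 250 bases before the start, read on both strands, CCGGAAG, the letters of many ETS factor sites, occurred in 17 members (39.5%) against 7.05% of genes. CACGTG, the E-box that Myc can bind, occurred in 3 members (6.98%) against 6.05% of genes, and TATAAA in 3 (6.98%) against 13% of genes. AAGATGGC, the letters of YY1 sites, occurred in Rps27 alone (2.33%) against 1.59% of genes. These matches describe the letters in the windows only.

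The bright members moved together from array to array. Within groups, the correlation of a bright member with the mean of the others had a median of 0.937, and the lowest was 0.452. The median of all 49 members averaged 7.98 ± 0.21 in Alk arrays labelled tumor (SD, n = 3), the highest of the 12 groups. The lowest was Arhgap5 labelled spleen with 7.24 ± 0.08, and the SD between arrays of a group, pooled over groups, was 0.28. In LacZ the members' median was 7.42, 7.77 and 7.82 in the arrays labelled tumor and 8.001, 8.206 and 7.495 in the arrays labelled spleen. The LacZ groups thus overlapped, and the spleen-labelled LacZ group lay above the other 5 spleen-labelled groups, whose means were 7.24 to 7.49. Other bright genes did the same: over the 36 arrays, the median of bright members and the median of 69 other genes above 7 had a Pearson correlation of 0.93, given as a description since both come from the same arrays. The members' median stayed between the 99.77th and 99.85th percentile of its array throughout.

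**Figure D2:**
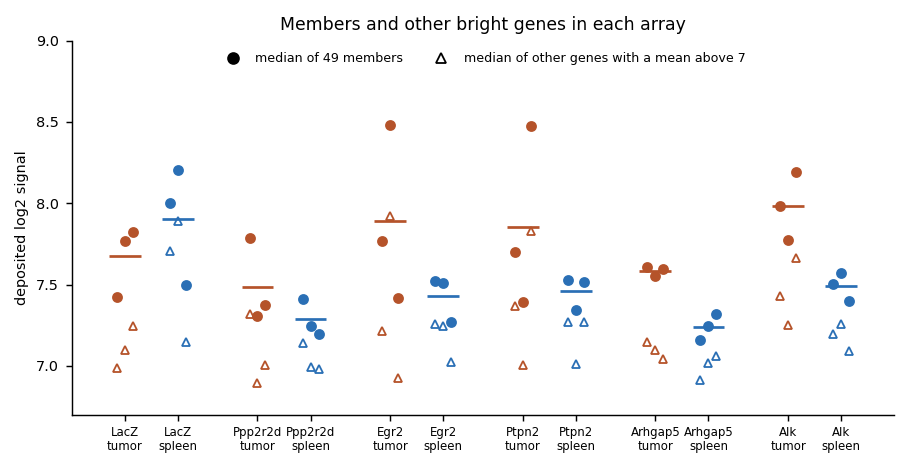
Median log2 signal of the 49 members (filled circles, bar at the group mean) and of 69 other genes with a mean above 7 (open triangles) in each of 36 arrays, with arrays labelled tumor (brown) left of arrays labelled spleen (blue) in each transduction. Circles and triangles rise and fall together between arrays, and the members' group means run from 7.24 to 7.98.

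The tissue label is the first factor of the study. Averaged over the 6 transductions, 29 of 49 ribosomal protein genes were higher and 6 lower in arrays labelled tumor (limma, adjusted p under 0.05 by Benjamini-Hochberg across 18193 genes), where 37.6% of all genes were higher and 33.1% lower, 70.7% in all. The members' median difference was 0.27 and that of all genes 0.13, so the members lay 0.14 above the general shift. Of the 35 bright members, 25 were higher and none was lower, with a median of 0.30, while of 69 other bright genes 17 were higher and 6 lower, with a median of 0.09. The 40S members had a median difference of 0.31, with 16 higher and 2 lower. The 60S members had a median of 0.25, with 13 higher and 4 lower. This small shared rise depended on the scaling of the arrays: after quantile normalization 10 members were higher and 7 lower with a median of 0.01, and after cyclic loess 37 were higher and 6 lower with a median of 0.43. Of all genes 29.5% were higher and 33% lower after quantile normalization, and 27.4% and 35.5% after cyclic loess, with medians of 0.00 and -0.04. The gap between the 3' and 5' probe sets of Gapdh, a sign of RNA quality on the log2 scale, moved with the label: it was 0.857 to 2.94 in the 18 arrays labelled tumor, against 0.246 to 0.828 in the 15 hairpin arrays and 0.829 to 1.39 in the 3 LacZ arrays labelled spleen. Its part in the differences between labels was not tested.

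Rplp2 had the largest rise of the bright members, whose median difference was 0.30. Its signal was 7.83 at the lowest, 8.35 at the median and 9.15 at the highest in arrays labelled tumor, against 7.69, 7.95 and 8.79 in arrays labelled spleen. The labels overlapped over most of that range, and the difference was 0.36 (SE 0.11, adjusted p = 0.0051, limma). For Rplp2 it was 0.005 after quantile normalization (adjusted p = 0.91) and 0.51 after cyclic loess. Rps14 differed by 0.36 (adjusted p = 0.0041), Rps24 by 0.35 (0.0053) and Rps3, a protein at the entry of the mRNA channel, by 0.35 (0.0055). Rps19, the gene most often mutated in human Diamond-Blackfan anaemia, had a difference of 0.34 (adjusted p = 0.0044) and Rpsa of 0.27 (0.024). Rplp0, the base of the stalk, had a difference of 0.23 that did not pass (adjusted p = 0.0501). Rpl11, which can bind the p53 regulator Mdm2, had a difference of 0.24 (adjusted p = 0.052). Rps6, the substrate of the S6 kinases, had -0.00 (SE 0.10, adjusted p = 0.99), with medians of 5.27 in arrays labelled tumor and 5.30 in arrays labelled spleen. It was higher past the test after quantile normalization (0.29, adjusted p = 1.1e-05) and cyclic loess (0.23, adjusted p = 0.00021).

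**Figure D3:**
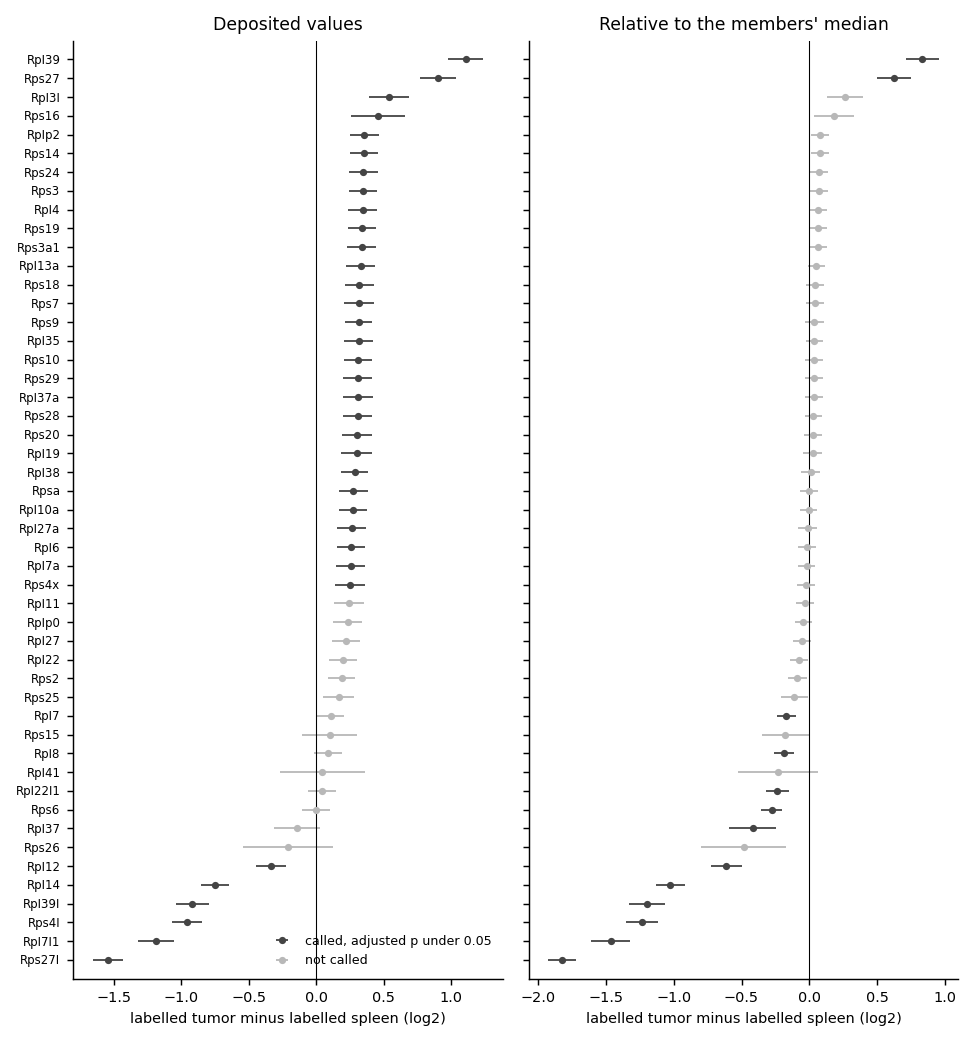
Difference between arrays labelled tumor and labelled spleen (log2, mean over 6 transductions) for each of the 49 members, with bars of 1 SE. Dark points passed an adjusted p of 0.05. Left, deposited values, with most members near 0.3. Right, after the members' median was taken from each array, with Rpl39 and Rps27 above the rest and 11 members below.

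To see which members moved against the others, the members' median of each array was taken from all its values before the fit. Then 2 members were higher and 11 lower in arrays labelled tumor, where 18.3% of all genes were higher and 42.9% lower (61.3% in all). The 2 were Rpl39, by 0.83 (SE 0.12, adjusted p = 4.7e-07), and Rps27, by 0.63 (SE 0.13, adjusted p = 7.2e-05). Lower were Rps27l (-1.82), Rpl7l1 (-1.46), Rps4l (-1.23), Rpl39l (-1.19), Rpl14 (-1.02), Rpl12 (-0.61), Rpl37 (-0.42), Rps6 (-0.28), Rpl22l1 (-0.24), Rpl8 (-0.19) and Rpl7 (-0.17). Of those 13 members only Rpl8 and Rpl7 belong to the bright class. Rps6 turned to 0.27 after quantile normalization, and its second probe set, of low signal (-1.33), was higher in arrays labelled tumor by 0.99.

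Rps27l gave the widest separation of all members. It is a paralogue of Rps27 that p53 is known to induce in human cells. Its signal was 4.37 at the lowest, 5.00 at the median and 5.84 at the highest in arrays labelled tumor, against 6.14, 6.58 and 7.18 in arrays labelled spleen. No array labelled tumor reached an array labelled spleen, which held for 1 of 49 members and for 7.87% of all genes (relative to the members' median, again 1 member and 8.49%). The difference was -1.54 (SE 0.11, adjusted p = 2.2e-13, limma). Both other probe sets of the gene were lower too, by differences of -1.77 and -2.13.

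Rps27, its partner on the 40S subunit, moved the other way. Its signal was 2.88 at the lowest, 3.69 at the median and 4.70 at the highest in arrays labelled tumor, against 2.15, 2.85 and 3.84 in arrays labelled spleen. The ranges overlapped, and the difference was 0.90 (SE 0.13, adjusted p = 5.6e-07). In LacZ the 3 arrays labelled spleen were spread from 2.15 to 3.84, a range that holds 2 of the 3 LacZ arrays labelled tumor (3.72, 3.25 and 4.22).

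A second pair was also split. Rpl39, a short protein at the peptide exit tunnel, had 0.40, 1.26 and 1.98 as lowest, median and highest signal in arrays labelled tumor, against -1.21, 0.10 and 0.84 in arrays labelled spleen, a difference of 1.11 (SE 0.13, adjusted p = 7.7e-09). Its paralogue Rpl39l had -1.17, 0.23 and 0.99 in arrays labelled tumor, against 0.22, 1.23 and 1.72 in arrays labelled spleen, a difference of -0.92 (SE 0.12, adjusted p = 1.1e-07). Both probe sets overlapped between labels and both lay near the middle of the array's signals, below the bright members.

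Of the other paralogues, Rpl7l1 and Rps4l were lower, Rpl22l1 did not pass and Rpl3l was higher. Rpl7l1, a relative of Rpl7 found in human pre-60S particles, had 1.56, 3.28 and 4.05 in arrays labelled tumor, against 3.84, 4.43 and 4.68 in arrays labelled spleen. The difference was -1.19 (SE 0.13, adjusted p = 3.9e-09), and its 2 further probe sets gave -1.29 and -0.46, while Rpl7 itself had 0.11 (adjusted p = 0.32). Rps4l, a paralogue of Rps4x, had -2.49, -1.60 and -0.67 in arrays labelled tumor, against -1.46, -0.52 and 0.15 in arrays labelled spleen, a difference of -0.96 (SE 0.11, adjusted p = 6.1e-09). Rps4x had 0.25 (adjusted p = 0.043). Rpl22l1, whose partner Rpl22 is needed for alpha-beta T cell development in mice, had 0.04 (SE 0.11, adjusted p = 0.73) and Rpl22 had 0.20 (SE 0.10, adjusted p = 0.081). Rpl3l had 0.54 (SE 0.15, adjusted p = 0.0024) at signals of -2.56 to -0.78 in arrays labelled tumor and -2.98 to -0.88 in arrays labelled spleen, and it did not pass after quantile normalization (0.15, adjusted p = 0.13).

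**Figure D4:**
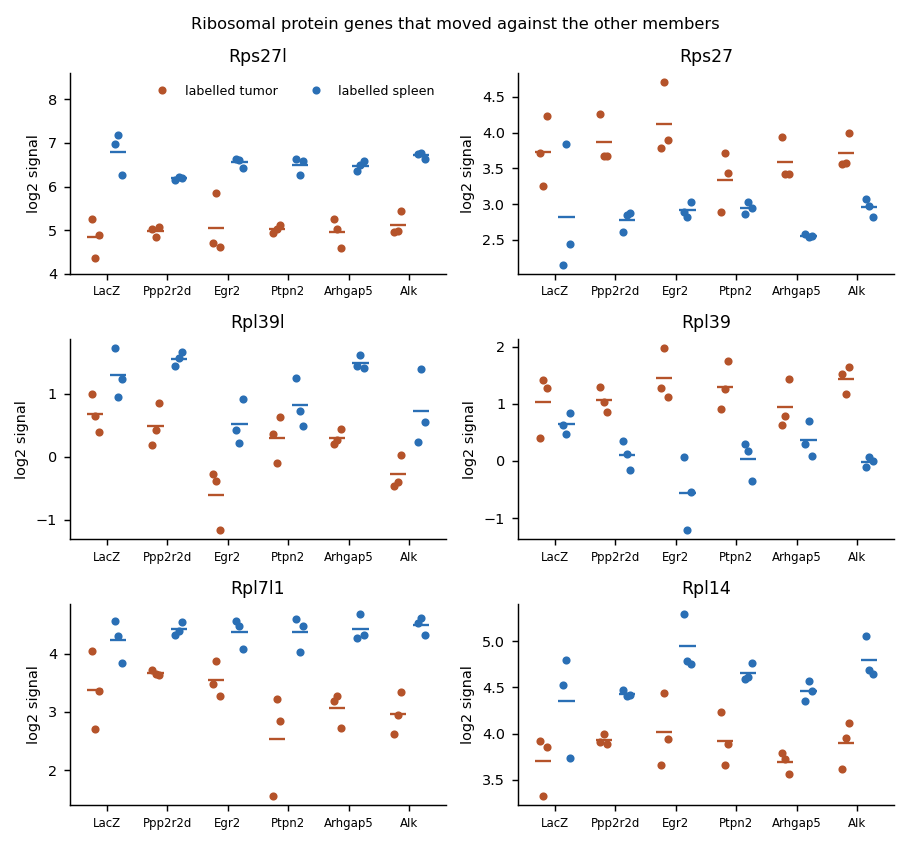
Log2 signal of 6 members in every array, by transduction, with arrays labelled tumor (brown) left of arrays labelled spleen (blue) and bars at the group means of 3 arrays. Rps27l, Rpl39l, Rpl7l1 and Rpl14 are lower in arrays labelled tumor in all 6 transductions, and Rps27 and Rpl39 are higher in all 6.

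Among ordinary 60S members, Rpl14 was lower in arrays labelled tumor, with 3.32, 3.88 and 4.44 as lowest, median and highest signal, against 3.73, 4.60 and 5.30 in arrays labelled spleen. The difference was -0.75 (SE 0.10, adjusted p = 2.2e-07). Rpl12 differed by -0.33 (SE 0.11, adjusted p = 0.011), and by -0.02 (adjusted p = 0.83) after quantile normalization. Rps16 differed by 0.46 (SE 0.20, adjusted p = 0.045), with medians of -3.32 in arrays labelled tumor and -3.41 in arrays labelled spleen, among the lowest signals of the array, and the sign turned to -0.06 after quantile normalization and -0.13 after cyclic loess. Different probe sets of a gene did not always agree in sign. A second probe set of Rps3 gave -0.50, 2 of the 4 of Rpl13a gave -0.43 and -0.63, and 1 of the 3 of Rpl37a gave -1.04, each of lower signal than the one used, and the dimmest of the 3 of Rps9 gave 1.14. Rpl14, Rpl12, Rpl39l and Rps4l each have 1 probe set, so no second reading exists for them here.

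A single array carried the largest departures. In array 1 of Ptpn2 labelled tumor, Rps26 read 1.06, against 7.01 and 7.96 in the other arrays of the group. Rpl41 read 2.63 there, against 8.07 and 9.26, and Rps15 read 4.39, against 7.38 and 8.43. Relative to the members' median these 3 lay 6.32, 5.69 and 3.29 below their mean in the other 35 arrays, and Rpl7l1 lay 2.38 below. Another probe set of Rps15 read 7.22 in the same array, within the range of other arrays, whose lowest value was 6.83. One further set of Rpl41 read 6.35 there, below the lowest of the others (6.75), and one of Rpl7l1 read 1.11, below 1.81. The other 2 further sets of Rpl41 and 1 of Rpl7l1 lay above the lowest of the other arrays. This array also had a gap of 2.94 between the 3' and 5' probe sets of Gapdh, against 0.25 to 1.39 in the other 35, and its highest correlation with any other array was 0.891, against 0.954 or more. The part of RNA quality in these readings was not tested. Without the array, Rpl41 was higher in arrays labelled tumor by 0.38 (SE 0.11, adjusted p = 0.0037), Rps15 by 0.29 (adjusted p = 0.016) and Rps26 had 0.15 (adjusted p = 0.20), whereas Rps27l stayed at -1.54 and Rpl39 at 1.14. In all, 32 members were then higher and 6 lower, with 38.4% and 33.1% of all genes.

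Within single transductions fewer members passed, and calls recurred in several paralogues and in the ordinary members Rps27, Rpl39 and Rpl14. In LacZ 1 member was higher and 2 lower (all genes: 6.31% higher, 18.9% lower), in Ppp2r2d 2 and 3 (8.1% and 14.5%), in Egr2 2 and 3 (10.5% and 15.9%), in Ptpn2 1 and 4 (24.1% and 25.1%), in Arhgap5 1 and 5 (10.7% and 21.6%), and in Alk 8 and 5 (33.2% and 20%). The members' median difference was -0.25 in LacZ, where all genes had -0.48, and 0.17, 0.44, 0.41, 0.37 and 0.50 in the hairpins in the same order, where all genes had -0.11, 0.25, 0.13, 0.03 and 0.34. Rps27l was called lower in 6 of 6 transductions, from -1.97 (SE 0.28, adjusted p = 1.7e-06) in LacZ to -1.21 (SE 0.28, adjusted p = 0.0011) in Ppp2r2d. Rps4l was called lower in 5 of 6, Rpl14 and Rpl39l in 4 and Rpl7l1 in 3, and all 4 had negative differences in every transduction. Rps27 was called higher in 5 of 6 (0.40 in Ptpn2 did not pass) and Rpl39 in 4 of 6, with its widest difference in Egr2, 2.02 (SE 0.32, adjusted p = 8.6e-06). In Alk, Rps24 (0.75), Rps28 (0.67), Rps3a1 (0.64) and Rpl38 (0.60) of the bright class were higher as well. Rps16 (1.58) and Rpl3l (1.03), both of low signal, were also higher in Alk. Without array 2 of Ptpn2 labelled tumor, 25 members were higher and 5 lower in Ptpn2 (all genes: 34% and 25.3%). Without array 3 of Egr2 labelled tumor 10 were higher and 2 lower in Egr2 (12.1% and 12.8%). Without array 1 of Ppp2r2d labelled tumor none was higher and 2 lower in Ppp2r2d (6.48% and 12.3%), and without array 1 labelled spleen 1 was higher and 2 lower (6.1% and 12.8%). In Alk, leaving out array 1 or 3 of either label left 2 to 3 members higher and 5 lower, where 19.2% to 28.2% of all genes were higher and 15% to 21% lower.

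The test of whether a member's difference between labels varied with the transduction was an F test over the 5 differences from LacZ. It called 0 of 49 members and 9.1% of all genes (limma, adjusted p under 0.05), and 2 members had an unadjusted p under 0.05. The smallest adjusted p was that of Rpl39 (0.076), followed by Rps16 (0.14), Rpl38 (0.26), Rps28 (0.27) and Rps24 (0.28). Each hairpin was also tested on its own (limma). The difference in Alk minus that in LacZ passed for Rps16 (2.28, adjusted p = 0.022), Rps24 (1.04, 0.039), Rpl38 (0.96, 0.044) and Rps28 (0.99, 0.047). For the other hairpins no member passed. Rps16 is of low signal, and the share of all genes passing these single tests is not given here. The F test thus called no member, while the single tests gave these calls in Alk.

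Each hairpin was set against LacZ within each label. As given above, only Ppp2r2d in arrays labelled spleen was lower in its own hairpin past the test. These are therefore comparisons of hairpin groups, and loss of the other targets is not shown. In arrays labelled tumor limma called 0 members for Ppp2r2d, Egr2, Ptpn2, Arhgap5 and Alk, where 0.995%, 0.0275%, 0.764%, 0.368% and 0.0055% of all genes were called. At an unadjusted p under 0.05 the counts were 2, 1, 3, 0 and 2 members in that order, where 13.5%, 5.35%, 19.8%, 4.55% and 25.6% of all genes passed. The members' median differences were -0.18, 0.21, 0.22, -0.09 and 0.30, where all genes had 0.09, 0.29, 0.24, 0.06 and 0.33, and all 5 share the same 3 LacZ arrays. The smallest unadjusted p was that of Rpl39l in Egr2. Its signal was -0.27, -0.38 and -1.17 in Egr2 arrays and 0.99, 0.64 and 0.39 in LacZ arrays, without overlap, a difference of -1.28 (SE 0.30, adjusted p = 0.30). In Alk Rpl39l had a difference of -0.95 (SE 0.30, adjusted p = 0.12). Without array 2 of Ptpn2 labelled tumor 1 member was higher and 3 were lower in Ptpn2 (all genes: 17.2% and 4.84%), and without its array 3 there were 3 lower (1.13% of all genes).

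In arrays labelled spleen limma called 0 members for Ppp2r2d, Ptpn2 and Alk, 1 lower for Egr2 and 2 lower for Arhgap5. Of all genes 12.8% were called for Ppp2r2d, 3.23% for Egr2 (1.64% lower), 9.58% for Ptpn2, 8.89% for Arhgap5 (5.86% lower) and 7.4% for Alk. At an unadjusted p under 0.05 there were 26, 9, 3, 30 and 5 members in that order, of which 26, 8, 2, 30 and 5 were lower than in LacZ. Of all genes 30.3%, 20.9%, 28.3%, 29.3% and 26.5% passed at that level, and 19%, 13.2%, 18.8%, 21.2% and 17.8% were lower. The members' medians were -0.59, -0.46, -0.46, -0.66 and -0.45, where all genes had -0.24, -0.18, -0.15, -0.22 and -0.21, and the 69 other bright genes had -0.53, -0.41, -0.39, -0.61 and -0.40. These comparisons share the 3 LacZ arrays labelled spleen, whose members' medians were the spread-out 8.001, 8.206 and 7.495 given above. Without the third of them, 15 members were called lower for Ppp2r2d and 23 for Arhgap5, with 8.87% and 10.5% of all genes. The Gapdh gap was 0.246 to 0.828 in the 15 hairpin arrays labelled spleen, against 1.39, 0.90 and 0.83 in these LacZ arrays, and its part in these differences was not tested.

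The member called for Egr2 was Rpl39, with 0.08, -1.21 and -0.54 in Egr2 arrays labelled spleen and 0.63, 0.48 and 0.84 in LacZ arrays labelled spleen. The groups did not overlap and the difference was -1.21 (SE 0.32, adjusted p = 0.032). It no longer passed when any of the 3 LacZ arrays, or array 2 or 3 of Egr2, was left out (adjusted p of 0.051 to 0.16). Those called for Arhgap5 were Rps24 and Rpl38. Rpl38 is known from mice for a part in translating Hox messages. Rps24 read 6.97, 7.13 and 7.15 in Arhgap5 arrays and 8.01, 8.23 and 7.43 in LacZ arrays, a difference of -0.81 (SE 0.26, adjusted p = 0.0497). Rpl38 read 7.274, 7.404 and 7.384 in Arhgap5 arrays and 8.34, 8.42 and 7.71 in LacZ arrays, a difference of -0.80 (SE 0.25, adjusted p = 0.041). Neither group pair overlapped, but relative to the members' median the differences were -0.15 and -0.14, and neither passed (adjusted p of 0.51 and 0.52). Both calls ended with the replicate number as a block (adjusted p of 0.063 and 0.052). They also ended when any of the 6 arrays but the third of LacZ was left out (adjusted p of 0.091 to 0.21 for Rps24 and 0.088 to 0.16 for Rpl38).

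In the deposited values, most genes of the mitochondrial ribosome, ribosome assembly, RNA polymerase I and initiation were lower in arrays labelled tumor. Of all genes 37.6% were higher and 33.1% lower. Of 76 genes of the mitochondrial ribosome 1 was higher and 70 lower in arrays labelled tumor (mean over transductions), with a median difference of -0.95 where the cytosolic members had 0.27. The widest falls were Mrps6 (-1.73) and Mrpl54 (-1.66), and Mrpl24 (0.31) was higher. Of 49 measured genes of ribosome assembly none was higher and 34 were lower, with a median of -0.47. Of 15 genes of RNA polymerase I and its factors, which transcribe ribosomal RNA, 3 were higher and 9 lower (median -0.35), among them Polr1b (-0.64) and the activator Ubtf (-0.58). Of 36 initiation factors none was higher and 21 were lower (median -0.41). The widest differences there were those of Eif4e, the cap-binding protein, with -1.68 (SE 0.11, adjusted p = 1.4e-14), and Eif1ax with -1.29.

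Among these lists, the medians nearest to the members' 0.27 were those of ribosome-associated genes (0.10) and of elongation and termination (-0.08). In the deposited values both lay below the 0.13 of all genes. After quantile normalization they were -0.03 and -0.02, where all genes had 0.00. After cyclic loess both lay above all genes, with 0.28 and 0.16 against -0.04. Of 9 elongation and termination genes, Eef1a1 (0.28, adjusted p = 0.024) and Eef1b2 (0.27, adjusted p = 0.023), which deliver aminoacyl-tRNA or reload that factor, were higher, and 4 were lower, with Eef1e1 (-1.40) lowest. Of 6 ribosome-associated genes 3 were higher and none lower: Tpt1 by 0.33, Fau, which encodes the 40S protein eS30 fused to a ubiquitin-like protein, by 0.30, and Naca of the nascent chain complex by 0.24. Subunits of eIF3 were uneven, with Eif3b at -1.26 and Eif3l at -0.72, while Eif3e (0.16), Eif3f (0.20) and Eif3h (0.00) did not pass. Among 25 regulators of mTOR and of TOP messages 5 were higher and 9 lower. Sesn1 (1.51) and Rictor (1.14) were the largest rises, and Eif4ebp1 (-2.19), which holds back Eif4e, and Ddit4 (-1.33) the largest falls. Larp1 had -0.15 (adjusted p = 0.35), Mtor -0.15 (adjusted p = 0.18) and Myc 0.20 (adjusted p = 0.20). Relative to the members' median, 75 of 76 mitochondrial ribosome genes, 43 of 49 assembly genes, 12 of 15 polymerase I genes and 32 of 36 initiation factors were lower. So were 7 of 9 elongation and termination genes and 3 of 6 ribosome-associated genes, and none of either list was higher. Of all genes 42.9% were lower in that form. After quantile normalization the medians of the mitochondrial ribosome, assembly, polymerase I and initiation lists were -0.65, -0.21, -0.09 and -0.21. Lower then were 67 of 76, 28 of 49, 7 of 15 and 20 of 36 of their genes, where 33% of all genes were. Higher were 3, 10, 4 and 5, where 29.5% of all genes were. After cyclic loess 68, 29, 7 and 18 were lower, where 35.5% of all genes were, and 4, 7, 3 and 7 were higher, where 27.4% were. The melanocyte and myeloid genes that were lower by the medians given above moved with these lists, and their part was not tested.

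**Figure D5:**
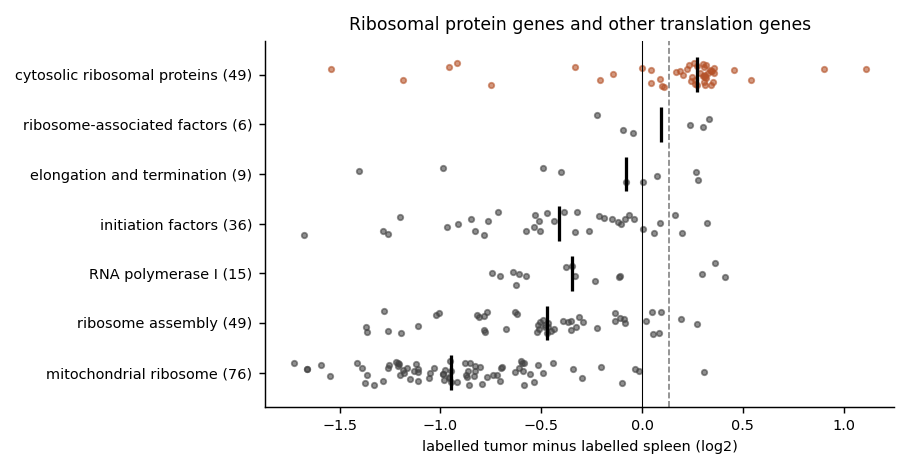
Difference between arrays labelled tumor and labelled spleen (log2, mean over 6 transductions) for the 49 cytosolic ribosomal protein genes (brown) and 6 lists of other translation genes (grey), 1 point a gene and a bar at each median. The dashed line is the median of all genes (0.13). The cytosolic members cluster at 0.27, and the mitochondrial ribosome lies furthest left with a median of -0.95.

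Over the 12 group means, the genes whose profile was most like the mean of the ribosomal protein genes were B2m (Pearson correlation 0.975), Pck1 (0.974), Msn (0.971), Tmsb4x (0.963) and Cfl1 (0.963). B2m, Tmsb4x and Cfl1 are other genes of bright signal, with means of 7.58, 7.90 and 7.65, and Pck1 had a mean of -2.10. The correlations are descriptions over 12 points that share the arrays' range of signal.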

How the data were processed

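Values were deposited by the authors as log2 signals of 36 arrays, and the submitters' processing notes name RMA (version and settings not given in the sources used here). Per the labels' protocols, total RNA was taken with Trizol and biotin-labelled in one-cycle amplification. The median of an array was -0.48 to -0.23 and distributions differed between arrays, so the log2 scale is known and the centring is not. The number of arrays limits the precision.

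Groups come from the labels. Of 45101 probe sets 34945 carried 1 symbol, 932 several, and 64 were controls. The fit used R 4.3.3, data.table (version 1.17.8) and limma 3.58.1 (lmFit and eBayes), 1 coefficient per group, with 24 residual and 6.75 prior degrees of freedom. Tests are two-sided and p-values adjusted over 18193 genes in each of 17 contrasts. The same holds for each hairpin's difference between labels minus that of LacZ. Members and lists were chosen with earlier results of these data known. No column of values was left unmapped.

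Named with values are the 5 highest and 5 lowest members by mean, the 8 largest called rises and falls of the mean contrast and of its relative form, 3 of each elsewhere, the 5 lowest p of the F test, paralogue pairs, 10 members named for their roles where measured, and 2 rises and falls of each list. A few other members and factors were named after their values were seen. Summed marker levels were 26.0 to 136 labelled tumor and 140 to 606 labelled spleen for myeloid genes, 33.7 to 104 and 16.9 to 33.5 for B cell genes, and 3.15 to 159 and 1.98 to 6.04 for erythroid genes. Of 10 T cell genes 3 were higher and 1 lower in arrays labelled tumor.

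Over 18 pairs of arrays with the same number and transduction, residual correlations lay between -0.24 and 0.24 and 4 exceeded 0.1. Numbers were therefore not used as pairs. Such correlations also carry array-wide shifts, so they cannot show whether arrays of the same number came from the same mouse. No 2 arrays were identical. In a test on simulated data over 18193 genes, the mean contrast recovered 15, 46, 50 and 50 of 50 changed genes at log2 changes of 0.5, 1, 2 and 4, with 10 false calls. The comparison of Ppp2r2d with LacZ labelled tumor recovered 0, 4, 39 and 50, with 5 false calls. The simulated noise was independent between genes, whereas the bright members moved together from array to array. These counts therefore do not describe errors that many genes of an array share. Alternatives were quantile and cyclic loess normalization, other probe set rules, a filter on low values (above the 40th percentile in 3 arrays), array weights, a replicate block, fewer arrays in the fit, the mean without LacZ and leaving out each array. Added after seeing the data were a median over members above 7 and the fit without Ptpn2 labelled tumor array 1.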

Additional observations from a re-analysis of the deposited data

How the results depend on the processing

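Counts are of the 49 members called unless another number is given. In the mean contrast the count of 35 was 30 to 40 with 1 array left out, with a median of 0.22 to 0.31. It was 17 after quantile normalization and 43 after cyclic loess. Only 26 members have a probe set lacking a suffix letter, and with those sets 19 of the 26 were called. Quantile normalization forces the brightest sets of all arrays onto the same values, so a shift shared by most of the brightest genes is removed by its construction. Its part in the count of 17 was not tested, nor was the cause of the other changes of count. With quantile normalization the labels differed in 8 members in LacZ and 10 in Ptpn2, against 3 and 5 in the deposited values, and the F test called 1. It called 1 member for Ptpn2 against LacZ labelled tumor, and, labelled spleen, 2 for Egr2, 1 for Ptpn2, 1 for Arhgap5 and 2 for Alk. With cyclic loess the labels differed in 38 members in LacZ, 14 in Ppp2r2d, 27 in Egr2, 40 in Ptpn2, 39 in Arhgap5 and 32 in Alk, against 3, 5, 5, 5, 6 and 13. It called 1 member for Ptpn2 against LacZ labelled tumor, and, labelled spleen, 1 for Ppp2r2d, 1 for Ptpn2 and 0 for Arhgap5. With the mean of all probe sets the labels differed in 5 members in LacZ, 8 in Ppp2r2d and 8 in Ptpn2, Arhgap5 labelled spleen kept 1 call, and relative to the members' median 22 members were called (15 higher, 7 lower) in place of 13. With probe sets lacking a suffix letter the relative count was 24 of 26 members (20 higher, 4 lower), and Arhgap5 labelled spleen had 0 of 26. The filter on low values gave 5 of 47 members in LacZ. Array weights, whose estimation stopped before convergence, gave 6 in LacZ, 10 in Egr2, 27 in Arhgap5 and 42 in Alk between labels, and 12 in the F test. Against LacZ labelled tumor they gave 31 for Ppp2r2d, 2 for Egr2, 1 for Arhgap5 and 10 for Alk. Labelled spleen they gave 30 for Ppp2r2d, 2 for Egr2, 4 for Ptpn2, 33 for Arhgap5 and 7 for Alk. With only the arrays of the groups compared the labels differed in 1 member in LacZ, 3 in Egr2 and 24 in Alk, Alk labelled tumor had 1, and Egr2 and Arhgap5 labelled spleen had 0. With the replicate block Arhgap5 labelled spleen had 0 in place of 2 (Rps24 with adjusted p = 0.063 and Rpl38 with 0.052), and no other count moved by over 1.5 times.

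With 1 array left out, counts between labels were 2 to 4 in LacZ, 2 to 4 in Ppp2r2d, 4 to 12 in Egr2, 4 to 30 in Ptpn2, 5 to 6 in Arhgap5 and 7 to 14 in Alk. Against LacZ they were 0 to 4 for Ptpn2 labelled tumor and 0 for the other 4 hairpins. Labelled spleen they were 0 to 15 for Ppp2r2d, 0 to 1 for Egr2, 0 to 23 for Arhgap5 and 0 for Ptpn2 and Alk. The F test gave 0 to 2, and the relative contrast 11 to 14. Signs turned for Rps16 in the mean contrast (-0.059 with quantile and -0.13 with cyclic loess), and with probe sets lacking a suffix letter for Rps3 (-0.50), for Rps24 in Arhgap5 labelled spleen (0.51) and for Rpl12 relative to the members' median (0.19). Rps6 relative to that median turned to 0.27 with quantile normalization, 0.40 with the mean of probe sets and 0.53 with probe sets lacking a suffix letter. Rps27l, Rpl7l1, Rps4l, Rpl39l, Rpl14, Rpl39 and Rps27 kept their direction and their call in the mean contrast, deposited and relative, under every alternative run, except that Rps27l has no probe set lacking a suffix letter and so no value there. Rps27l lay between -1.81 and -1.32 and Rpl39 between 1.02 and 1.25 under the alternatives that keep all arrays. Rps16 lost its call with any of 22 single arrays left out, and Rpl37, relative to the median, with any of 12.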
